A study of Mus musculus with 20 samples.

Results

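The 9 genes described here, all of radical production and removal, were followed in brain monocytes and microglia of mice, 3 days after a photothrombotic stroke. They were taken by symbol as a set of phagocyte oxidase genes and related radical enzymes: Cybb, Cyba, Ncf1, Ncf4, Rac2, Sod2, Nos2, Mgst1 and Prdx5. All 9 were found among the 16536 genes of the table of Cxcr4-GFP reporter mice, and 8 among the 16140 genes of the table of Cxcr4CreER mice; Nos2 was not analysed in the latter. A filter on low values left 7 members for testing in the first table (7706 genes tested) and 8 in the second (12432 genes tested). Nos2 and Mgst1 did not pass it in the reporter table.

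In permanent photothrombosis a dye in the blood is activated by light and clots the vessels of a small area of cortex. The reporter table holds 4 monocyte libraries, sorted as GFP-positive, and 4 microglia libraries, sorted as GFP-negative, from Cxcr4-GFP mice, in which GFP marks cells that express the chemokine receptor Cxcr4. The Cxcr4CreER table holds 3 libraries each of microglia and monocytes from control mice and from mice with a conditional Cxcr4 knockout (KO). There monocytes were sorted as TdT-positive cells and microglia as TdT-negative ones, in either genotype. Every library thus comes from an injured brain, population coincides with the sorted colour in both tables, and both Cxcr4CreER genotypes carry the Cre line. Age, sex and tamoxifen schedule are not in the labels. Of the reporter libraries, the first pair came from 2 mice, the second from a pool of 5 and the others from single mice. Titles of all reporter libraries and of the KO libraries carry a tag, BrKo, that the labels do not explain.

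Values are normalized counts, that is, reads divided by 1 size factor per library. The tables were normalized separately, so levels are compared within a table only, and no gene lengths accompany the values, so one gene's level is not compared with another's. Libraries held 0.617 to 14.9 M reads in the reporter table and 9.73 to 56.8 M in the Cxcr4CreER table. Of the reporter reads, the ribosomal RNA entry Rn45s took 48.3% in GFP microglia 2 and 22.1% to 28.5% in the others. Few genes were detected in 3 reporter libraries: 5598 in GFP microglia 3, 3489 in GFP microglia 4 and 3029 in GFP monocytes 3. The remaining 5 had between 10422 and 14498. Cxcr4, the targeted gene, lay at 1166 to 1332 normalized counts in control monocytes and 536 to 1010.3 in KO monocytes, and at 0 to 7.88 in the microglia of both genotypes. KO monocytes thus lay below control monocytes without overlap, but Cxcr4 was not called (log2 fold -0.70, SE 1.10, adjusted p = 0.962). That SE comes from a spread estimated over both populations, so it includes the microglia libraries at or near 0. The labels do not show whether TdT-negative microglia lost the gene. The 10 microglia markers summed to 194162 to 303728 in the microglia of the Cxcr4CreER table and 21034 to 36566 in its monocytes, and the 10 monocyte markers to 2069.9 to 7909.6 and 102025 to 184971. In the reporter table the microglia sums were 18104 to 29528 in microglia and 905 to 3263 in monocytes, and the monocyte sums 2.50 to 390.0 and 4491 to 14571. GFP monocytes 3 had Ccr2, a defining monocyte marker, at 0, with Ly6c2 at 3146.

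The phagocyte NADPH oxidase passes electrons from NADPH across a membrane to oxygen and so makes superoxide. Its catalytic subunit, encoded by Cybb, pairs in the membrane with the product of Cyba; on activation cytosolic subunits, among them those encoded by Ncf1 and Ncf4, join it together with a Rac GTPase. Phagocytes use it against microbes, and microglia carry it as well. Sod2 converts superoxide to hydrogen peroxide in mitochondria, Prdx5 reduces peroxides, Mgst1 is a membrane-bound glutathione transferase that also reduces lipid peroxides, and Nos2 makes nitric oxide.

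Cybb was the member that differed between monocytes and microglia in all 3 population comparisons. In GFP microglia it lay at 147, 159.6, 129.9 and 8.89 normalized counts, and in GFP monocytes at 1315, 1759.8, 1182 and 1369. The groups did not overlap, and the low value of 8.89 is in GFP microglia 4, a library with few detected genes. The log2 fold was 4.22 (SE 0.85, n = 4 per group, adjusted p = 0.00842, limma on log2(value + 1) with Benjamini-Hochberg adjustment over all tested genes). Cybb was 1 of 7 tested members called at an adjusted p under 0.05 in this comparison, where 0.415% of all tested genes were called higher and 0.493% lower. With no filter on low values the adjusted p was 0.0502, at the same fold.

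In control mice, Cybb lay at 1199, 555 and 2851 in microglia and at 18279, 10950.4 and 16968 in monocytes. In KO mice the values were 1036, 2113 and 2810.2 in microglia and 17004, 10974 and 16588 in monocytes. Every monocyte library was thus above every microglia library in both genotypes. The log2 fold was 3.60 in control (SE 0.54, adjusted p = 0.00202) and 2.99 in KO mice (SE 0.54, adjusted p = 0.00581; n = 3 per group). By group mean the order was control microglia (1535 ± 1184, SD), KO microglia (1986 ± 894), KO monocytes (14856 ± 3368) and control monocytes (15399 ± 3908), and only the step between the populations exceeded the spread within groups. Because these are bulk samples, fewer expressing cells and less RNA per cell cannot be told apart here or in the results that follow.

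Cybb was called in both Cxcr4CreER population comparisons together with Sod2, Mgst1 and Prdx5, and the 300 bases around their annotated starts (250 before and 50 after) are shown for these 4, to give the promoter sequence behind genes that differed in the same direction. They are RefSeq entries of build GRCm38.p6, 5′ to 3′ on the gene's strand; the build behind the deposited values is not given in the sources used here. Of the 9 members, 6 had an entry. Motifs were searched on both strands: a PU.1 type site (GAGGAAGT), the core of the antioxidant response element (TGACNNNGC), an NF-kappa-B site (GGGACTTTC) and a STAT type site (TTCNNNGAA). Among all 32851 promoter windows of this length, 3.20%, 12.4%, 0.353% and 8.30% held them, respectively. The Cybb window, on the minus strand of chromosome X (chrX:9469275-9469574), held none of the 4, which says only that these letters are not in this window.
Cybb: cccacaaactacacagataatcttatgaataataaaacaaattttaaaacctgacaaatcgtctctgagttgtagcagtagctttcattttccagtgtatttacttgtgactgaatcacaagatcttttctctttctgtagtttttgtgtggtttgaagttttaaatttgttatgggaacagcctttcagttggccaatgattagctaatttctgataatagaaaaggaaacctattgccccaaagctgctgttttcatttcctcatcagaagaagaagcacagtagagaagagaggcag

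**Figure D1:**
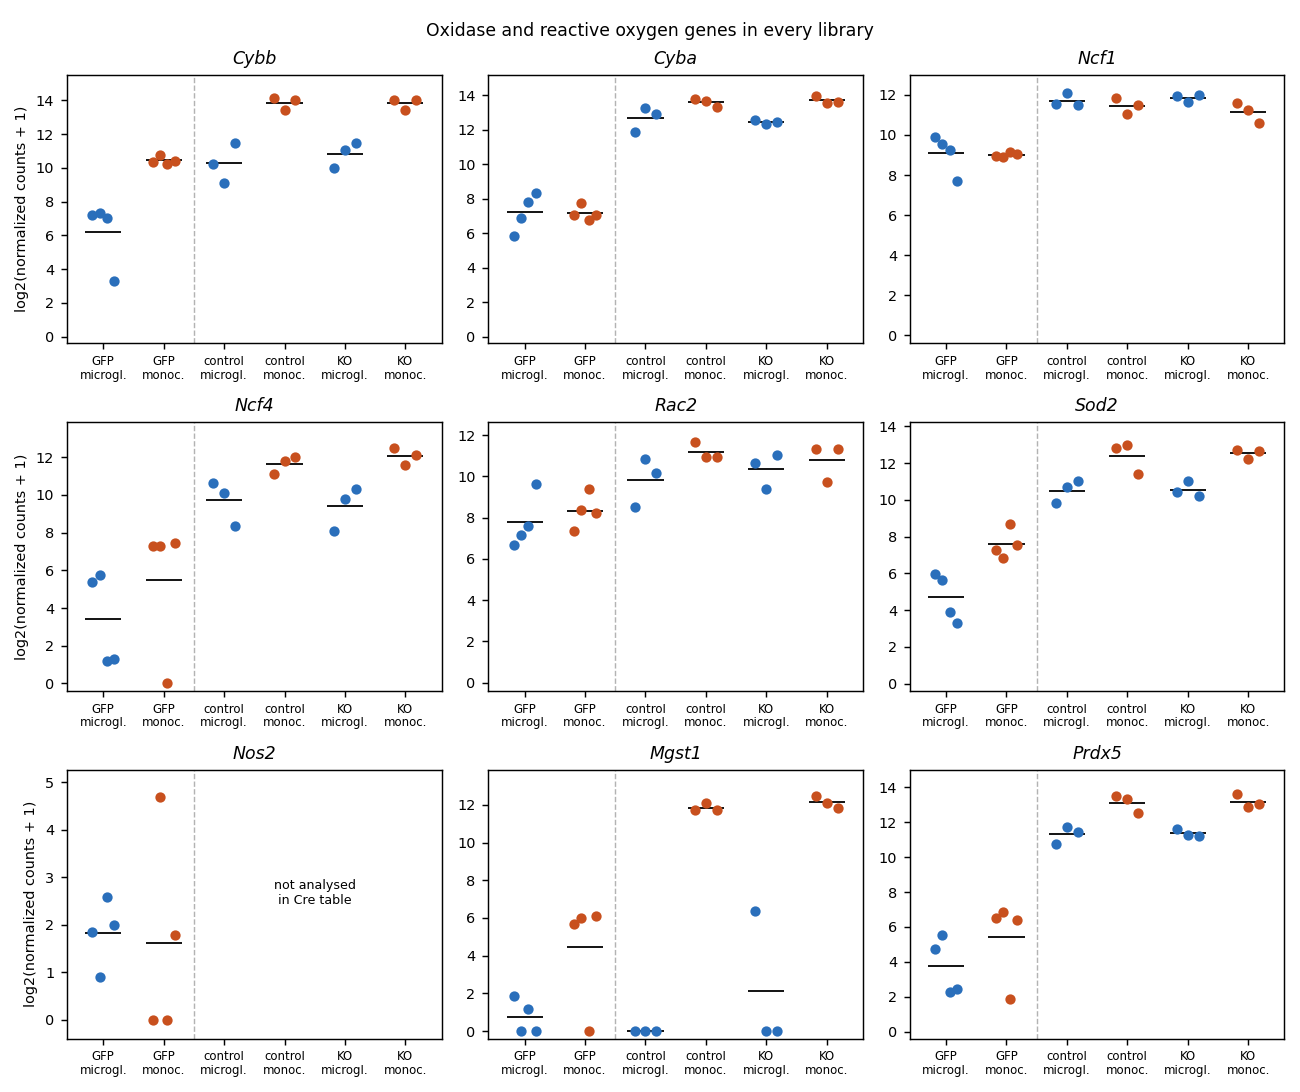
Normalized counts of the 9 genes in every library, as log2(value + 1) on the vertical axis, with microglia in blue, monocytes in orange, group means as lines and a dashed line between the separately normalized tables. For Cybb all monocyte points lie above all microglia points in each table, whereas the Ncf1 groups overlap in the reporter and control mice; the vertical scale differs between panels.

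The membrane partner Cyba differed less. In GFP microglia it lay at 56.8, 118, 224 and 322 normalized counts and in GFP monocytes at 132, 211, 108 and 133, and the monocytes lay within the range of the microglia. The log2 fold there was -0.07 (95% interval -2.16 to 2.02, adjusted p = 0.999). Control mice had 3812, 10057 and 7660.1 in microglia and 14048, 13226 and 10385 in monocytes, without overlap (log2 fold 0.91, SE 0.31, adjusted p = 0.121, not called). KO mice had 6175, 5243 and 5737 in microglia and 16244, 12177 and 12763 in monocytes, also without overlap. In KO mice the fold of 1.25 (SE 0.31) was called, at an adjusted p of 0.0317. That call did not hold under 8 of 20 alternatives, among them CPM scaling (adjusted p = 0.118), upper quartile scaling (0.0764) and each removal of 1 KO library (0.0604 to 0.112); in control mice, Cyba was called without control microglia 2 (adjusted p = 0.0450).

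Ncf1, whose product organizes the cytosolic part of the complex, was not called in any comparison of all libraries. Its values were 951, 752, 606 and 210.4 in GFP microglia and 490.0, 475, 558 and 526 in GFP monocytes. The 4 monocyte libraries lay close together, inside the range of the microglia (log2 fold -0.10, 95% interval -1.37 to 1.17). Control microglia had 2952, 4319.7 and 2916 and control monocytes 3692, 2087 and 2864, which overlapped (log2 fold -0.25, 95% interval -0.98 to 0.47). KO microglia had 3866, 3214 and 4092 and KO monocytes 3069.9, 2411 and 1519. Here every monocyte library lay below every microglia library, at a log2 fold of -0.73 (95% interval -1.45 to 0.00, adjusted p = 0.259). With CPM scaling the reporter fold of Ncf1 was 0.047 and that of Cyba 0.082, so neither has a direction there. The totals used for CPM include the Rn45s reads.

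Ncf4, which encodes a cytosolic subunit that binds membrane phosphoinositides, had values of 41.3, 52.5, 1.25 and 1.48 in GFP microglia and of 154, 157, 0 and 177 in GFP monocytes. Its 3 lowest values are those of the 3 reporter libraries with few detected genes, and the groups overlapped through GFP monocytes 3 (log2 fold 2.11, SE 2.10, adjusted p = 0.999). In control mice Ncf4 lay at 1599, 1115 and 325 in microglia and 2167, 3529 and 4106 in monocytes, with no overlap but no call (log2 fold 1.92, SE 0.65, adjusted p = 0.119). In KO mice it lay at 275, 891 and 1269 in microglia and 5726, 3098 and 4415 in monocytes, and was called higher in monocytes (log2 fold 2.66, SE 0.65, adjusted p = 0.0308). The KO call did not hold under 6 of 20 alternatives (adjusted p up to 0.114), among them CPM scaling (0.0548) and the removal of any KO library but KO microglia 3.

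Rac2, the GTPase of blood cells that activates the assembled oxidase, was not called in any population comparison. It lay at 101, 143, 194 and 803 in GFP microglia and at 161, 335, 678 and 298 in GFP monocytes, with GFP microglia 4 far above the rest of its group. Control microglia had 360.0, 1840.3 and 1151 and control monocytes 3289, 1957 and 1989.6, without overlap (log2 fold 1.36, SE 0.66, adjusted p = 0.289). KO microglia had 1629, 670.1 and 2073 and KO monocytes 2527, 847 and 2609, which overlapped (log2 fold 0.43, 95% interval -1.01 to 1.88). The KO monocyte value of 847 lies below 2 of the 3 KO microglia values.

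Of the genes that remove radicals, Sod2 stood higher in monocytes than in microglia in every table. It lay at 62.0, 48.2, 13.7 and 8.89 in GFP microglia and 154, 115, 409.7 and 187 in GFP monocytes, without overlap. The fold of 2.90 on the log2 scale had an unadjusted p of 0.0382 and an adjusted p of 0.595, so it was not called. Control mice had 898, 1646 and 2062 in microglia and 7251, 8045 and 2735 in monocytes, and the log2 fold of 1.90 (SE 0.45) was called at an adjusted p of 0.0263. KO mice had 1391, 2102 and 1162 in microglia and 6691, 4773 and 6568 in monocytes (log2 fold 1.98, SE 0.45, adjusted p = 0.0211). The control call was lost without control microglia 1, control microglia 2, control monocytes 1 or control monocytes 2 and when only the 6 control libraries were fitted (adjusted p up to 0.0991). The KO call was lost without KO microglia 1 or 3 or KO monocytes 1 or 3 (up to 0.0865). The Sod2 window (chr17:13007589-13007888, plus strand) holds 1 STAT type match, TTCCCAGAA, in capitals, whose first base is at -185 from the start. The window of Ncf1, which was not called, holds 1 STAT type match as well.
Sod2: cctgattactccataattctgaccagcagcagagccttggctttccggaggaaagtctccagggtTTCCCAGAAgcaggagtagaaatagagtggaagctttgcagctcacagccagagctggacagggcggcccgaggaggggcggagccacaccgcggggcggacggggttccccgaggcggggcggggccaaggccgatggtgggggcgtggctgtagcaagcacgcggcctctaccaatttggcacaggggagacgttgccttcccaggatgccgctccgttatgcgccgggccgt

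Prdx5 also stood higher in monocytes. In GFP microglia it lay at 25.8, 45.6, 3.75 and 4.45, and in GFP monocytes at 90.9, 117, 2.64 and 84.8. As for Ncf4, its 3 lowest values are in the libraries with few detected genes, and it was not called there (log2 fold 1.68, SE 1.91, adjusted p = 0.999). Control mice had 1737, 3421 and 2734 in microglia and 11487, 10474 and 5915 in monocytes, and KO mice 3158, 2443 and 2408 against 12613, 7592 and 8341. In neither genotype did the groups overlap. The log2 folds of 1.82 in control (SE 0.34, adjusted p = 0.00768) and 1.81 in KO mice (SE 0.34, adjusted p = 0.00778) were called, and remained so under all 20 alternatives run for each (adjusted p up to 0.0423 and 0.0395). Its window (chr19:6910057-6910356, minus strand) holds none of the 4 motifs.
Prdx5: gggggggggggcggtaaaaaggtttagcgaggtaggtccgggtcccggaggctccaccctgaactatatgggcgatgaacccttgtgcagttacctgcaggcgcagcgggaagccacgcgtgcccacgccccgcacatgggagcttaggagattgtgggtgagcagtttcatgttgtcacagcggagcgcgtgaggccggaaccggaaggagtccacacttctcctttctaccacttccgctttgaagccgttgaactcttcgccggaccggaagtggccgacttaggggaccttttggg

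Mgst1 had the widest gap of the 9. It had no read in any control microglia library, in which 3 reads over the group would equal 0.831 normalized counts, and lay at 3438, 4345 and 3420.5 in control monocytes. Against that floor it was at least 4492-fold higher in control monocytes (adjusted p = 0.000454), and at least 4125-fold to 4681-fold when 1 monocyte library was left out. In KO microglia it lay at 83.0, 0 and 0 and in KO monocytes at 5779, 4437 and 3644 (log2 fold 10.02, SE 1.43, adjusted p = 0.00151). That fold depends on how values of 0 are treated: it ran from 7.34 to 12.15 over the alternatives, all called, the highest without KO microglia 1, which leaves KO microglia at 0, and the ratio of the group means was 167. All 91 Mgst1 reads of KO microglia were in KO microglia 1, where the monocyte markers Ccr2 and Ly6c2 were at 72.0 and 0. In GFP microglia Mgst1 lay at 2.58, 0, 1.25 and 0, from 2 reads in all, and in GFP monocytes at 49.5, 62.1, 0 and 67.9. It did not pass the filter on low values in that table, and the 0 among the monocytes is GFP monocytes 3.

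Mgst1 has 2 annotated starts, and both windows are shown because they differ in the motif they hold. The window of the upstream start (chr6:138140277-138140576, plus strand) holds 1 match to the antioxidant response element core, GCACGGTCA on the strand shown, from -56. That of the second (chr6:138141337-138141636, plus strand) holds 1 STAT type match, TTCCAGGAA, from 30 bases after the start. Capitals mark these matches; gene-level counts do not show which start was used.
Mgst1, upstream start: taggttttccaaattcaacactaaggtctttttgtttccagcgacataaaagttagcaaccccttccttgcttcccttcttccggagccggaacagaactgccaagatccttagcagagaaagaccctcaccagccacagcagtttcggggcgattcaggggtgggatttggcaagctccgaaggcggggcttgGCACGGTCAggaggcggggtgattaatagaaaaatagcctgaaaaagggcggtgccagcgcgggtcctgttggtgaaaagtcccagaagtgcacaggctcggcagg
Mgst1, second start: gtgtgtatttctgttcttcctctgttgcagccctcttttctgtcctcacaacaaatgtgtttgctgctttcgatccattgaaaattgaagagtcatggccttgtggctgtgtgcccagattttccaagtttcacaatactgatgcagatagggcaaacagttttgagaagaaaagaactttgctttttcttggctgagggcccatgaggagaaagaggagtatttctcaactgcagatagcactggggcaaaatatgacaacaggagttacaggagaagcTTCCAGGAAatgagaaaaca

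Nos2, the inducible nitric oxide synthase, lay at 2.58, 0.861, 4.99 and 2.96 in GFP microglia, from 9 reads in all. In GFP monocytes it lay at 0, 24.8, 0 and 2.42. All but 1 of the 239 monocyte reads came from GFP monocytes 2, the pool of 5 mice, which was also the most deeply sequenced library with 14.9 M reads. A single read equals 2.58 normalized counts in GFP microglia 1, and 0.627, 1.32 and 2.42 in GFP monocytes 1, 3 and 4. The microglia values thus rest on few reads, and the monocyte mean on 1 library. Nos2 did not pass the filter, and with no filter it was not called (limma log2 fold -0.21, adjusted p = 0.976).

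Counted over the members, 4 of 8 were called higher in control monocytes than in control microglia, where 3.46% of all tested genes were called higher and 3.06% lower. In KO mice, 6 of 8 were called higher, where 3.85% of all tested genes were called higher and 2.98% lower. No member was called lower. Groups did not overlap, with monocytes higher, for 2 of 7 members in the reporter mice (5.22% of all tested genes), 7 of 8 in control mice (9.60%) and 6 of 8 in KO mice (12.7%). Ncf1 in KO mice was the 1 member without overlap and lower in monocytes (14.8% of all tested genes). The median log2 fold of the tested members was 1.68 in reporter, 1.86 in control and 1.90 in KO mice, beside 0.51, -0.24 and -0.25 over all tested genes. These counts and medians describe the list only.

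Without the 3 reporter libraries of few detected genes, 2 GFP microglia and 3 GFP monocyte libraries remained, and 5 of 7 members were called. Higher in monocytes were Cybb (log2 fold 3.25, adjusted p = 2.07e-06), Ncf4 (1.78, 0.00234), Sod2 (1.43, 0.0135) and Prdx5 (1.46, 0.0285), and lower was Ncf1 (-0.77, 0.0280). In that fit 8.41% of all tested genes were called higher and 7.14% lower. Cyba (0.91, adjusted p = 0.136) and Rac2 (1.06, 0.0582) were not called. The fold of Cyba thus had the opposite sign to that with all 8 libraries.

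**Figure D2:**
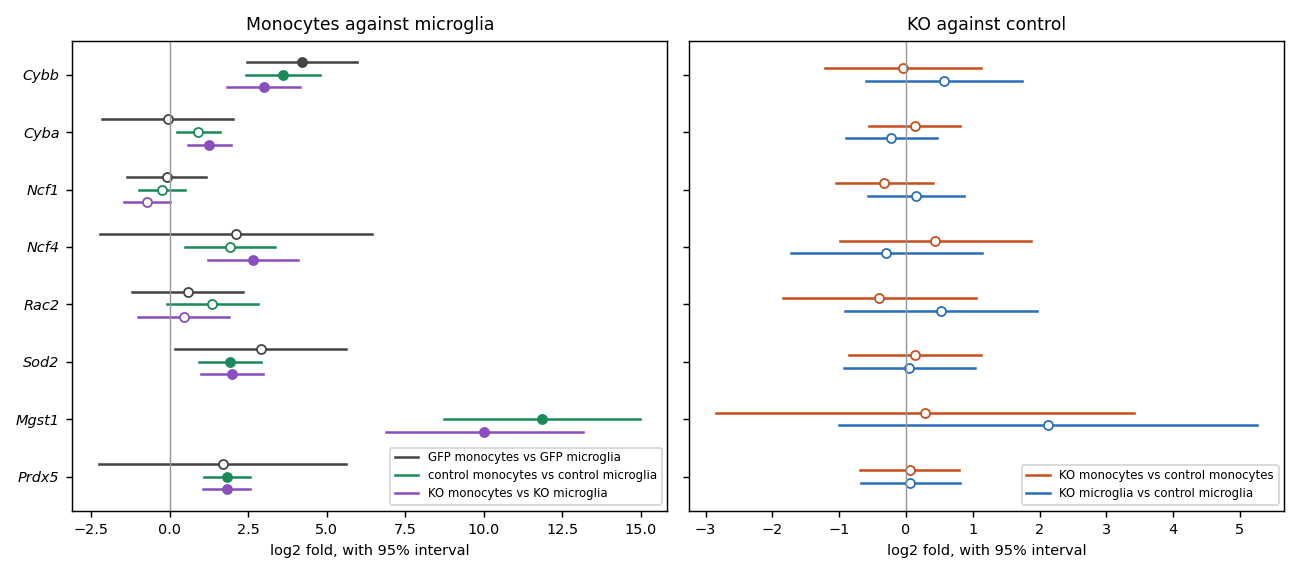
Log2 fold of each tested gene with its 95% interval on the horizontal axis, for monocytes against microglia (left) and KO against control (right), with filled points for calls at an adjusted p under 0.05. All filled points lie on the left side, from 1.25 for Cyba in KO mice to 11.86 for Mgst1 in control mice, and every interval on the right spans 0; the Mgst1 fold depends on the added count where a group is at 0.

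Some markers of other cell types moved with the populations, mainly those of neutrophils and border macrophages. Of 5 tested dendritic cell markers, 1 was called higher and 1 lower in the monocytes of each genotype. Cd209a lay at 926 to 4034 in control monocytes against 0 to 112 in control microglia. In KO mice it lay at 1074 to 3381 against 0 to 13.1. Siglech, also on the microglia list, was lower in monocytes, and Zbtb46 and Xcr1 overlapped in both genotypes. Erythroid sums lay at 701 to 2090 in control microglia and 0 to 270 in control monocytes, with overlap in KO mice, and none of 3 tested was called. T, NK and B cell sums were 7.67 to 48.3 in control and 2.00 to 541 in KO monocytes, and none of 2 tested was called. Of the 15 tested neutrophil markers, 5 were called higher in control monocytes and 9 in KO monocytes than in the microglia of the same genotype. Their summed level was 18446 to 42544 in control and 40965 to 80598 in KO monocytes, against 908 to 1925 and 1374 to 4148 in the microglia. Most of the monocyte sums came from S100a8 and S100a9, with means of 20235 and 6154 in control and 37979 and 9866 in KO monocytes. Of the defining markers, Ly6g, Camp, Ltf and Ngp were at 0 in control microglia. Ly6g lay at 8.69, 0 and 10.2 in control and 258, 123 and 3.34 in KO monocytes. In control monocytes Camp lay at 11.05 to 2015, Ltf at 10.97 to 100 and Ngp at 0 to 234. In KO monocytes Camp lay at 0 to 1473, Ltf at 0 to 522 and Ngp at 0.668 to 2564. Cxcr2, the other defining marker, lay at 183 to 309 in control microglia and 115 to 1947 in control monocytes. In KO mice Cxcr2 lay at 178 to 217 in microglia and 364 to 1409 in monocytes. Camp was at 350 in KO microglia 2. Of 6 tested border macrophage markers, Pf4 and F13a1 were called higher in the monocytes of each genotype, and these made up most of the monocyte sums, which were 6448 to 18787, against 1127 to 3546 in microglia. The defining marker Mrc1 was not called, at 79.3 to 529 in control monocytes against 695 to 1512 in control microglia and 711 to 1433 against 414 to 1330 in KO mice, and Lyve1 was at 0 in all monocytes of that table. In the reporter table the 1 neutrophil marker tested was not called, and the sums were 892 to 1462 in microglia and 425 to 2019 in monocytes. The border macrophage sums there were 191, 108, 1.25 and 2.96 in GFP microglia and 1185, 1355, 2.64 and 846 in GFP monocytes, lowest in the 3 libraries with few detected genes, and the 1 such marker tested was not called. The part of other cell types in the member differences was not tested. By library, the neutrophil sums were 18446, 42544 and 33323 in control monocytes, where Mgst1 was at 3438, 4345 and 3420.5. In KO monocytes they were 80598, 51741 and 40965, where Mgst1 was at 5779, 4437 and 3644, in the same order. S100a8 and S100a9 made up most of these sums. Of the defining markers, Ly6g, Camp, Ltf and Ngp were highest in KO monocytes 1 among the KO monocytes. Cxcr2 was highest in KO monocytes 3. Among the control monocytes, Camp was highest in control monocytes 2 and Ltf in control monocytes 1. Ly6g, Cxcr2 and Ngp were highest in control monocytes 3.

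The oxidase is assembled from several subunits, so the level of each was also set against that of Cybb within the same library, after adding 1 to both; apart from that added 1, the scaling between libraries cancels. The group difference of such a ratio is the fold of the subunit minus the fold of Cybb, so it restates how far each subunit's difference fell short of that of Cybb. Relative to Cybb, monocytes held less Cyba, Ncf1 and Rac2 than microglia without overlap in all 3 population comparisons, while Cyba and Rac2 themselves were at higher values in control monocytes. The log2 ratio of Ncf1 to Cybb was 2.68, 2.23, 2.21 and 4.42 in GFP microglia and -1.42, -1.89, -1.08 and -1.38 in GFP monocytes. In control mice it was 1.30, 2.96 and 0.03 in microglia and -2.31, -2.39 and -2.57 in monocytes. In KO mice it was 1.90, 0.60 and 0.54 against -2.47, -2.19 and -3.45. The ratios themselves are not stoichiometries, since they take no account of transcript length; their differences between groups do not carry the length.

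The difference in the log2 ratio of Ncf1 to Cybb, monocytes minus microglia, was -4.33 in reporter, -3.85 in control and -3.72 in KO mice. For Cyba to Cybb it was -4.29, -2.70 and -1.74, and for Rac2 to Cybb -3.66, -2.25 and -2.56. These 9 comparisons showed no overlap between the groups. Cybb itself showed none in the same mice, and the share of all genes whose ratio to Cybb shows none was not computed. The 9 are therefore no result about these subunits in particular. They had the smallest p that the 2-sided exact permutation test allows, 0.0286 for 4 against 4 libraries and 0.1 for 3 against 3, and over the 20 ratio comparisons none had an adjusted p under 0.05 (smallest 0.19). The ratio of Ncf4 to Cybb overlapped in all 3 (differences of -2.12, -1.68 and -0.34; exact permutation p = 0.4, 0.4 and 0.3). GFP monocytes 3, where Ncf4 was at 0, gave the lowest ratio, -10.21, a value set by the added 1. Comparisons of KO with control overlapped for all 4 ratios in both populations, with differences between -0.86 and 0.48.

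**Figure D3:**
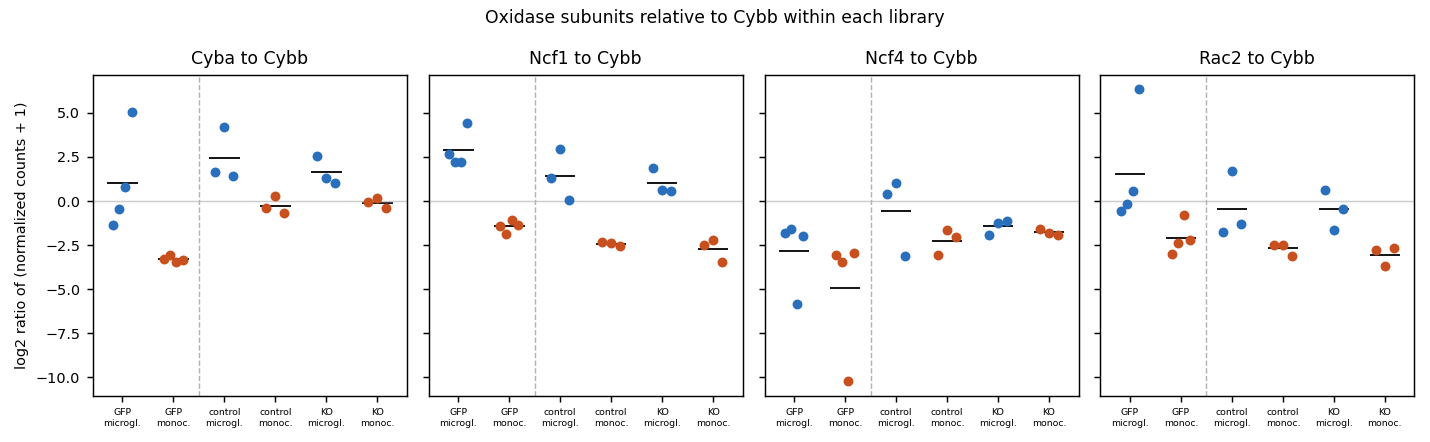
Log2 ratio of Cyba, Ncf1, Ncf4 and Rac2 to Cybb in every library, from values with 1 added, with microglia in blue, monocytes in orange, group means as lines and a dashed line between the tables. The orange points lie below the blue ones of the same mice for Cyba, Ncf1 and Rac2, while those for Ncf4 overlap.

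Between the libraries labelled KO and control, no member was called by limma; Cxcr4 itself was lower in KO monocytes without being called. In monocytes, 0 of 8 members were called between KO and control mice, where 0.0402% of all tested genes were called, and no member's groups were free of overlap (8.82% of all tested genes). In microglia, 0 of 8 were called (0.0322% of all tested genes) and again all overlapped (9.46%). Not 1 member had an unadjusted p under 0.05 in either comparison by limma. With edgeR none was called, and DESeq2 called none in monocytes and 1, Mgst1, in microglia (adjusted p = 7.95e-18), a call that rests on the single KO microglia library with 83.0 normalized counts; without it Mgst1 is at 0 in both microglia groups.

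The intervals show what sizes remain possible. For Cybb, the log2 fold of KO over control was -0.04 in monocytes (95% interval -1.21 to 1.12) and 0.56 in microglia (-0.60 to 1.73). Sod2 had 0.13 (-0.85 to 1.12) and 0.05 (-0.93 to 1.04), and Prdx5 had 0.06 (-0.69 to 0.80) and 0.06 (-0.68 to 0.81). The intervals of Cyba were -0.55 to 0.81 and -0.90 to 0.46, and those of Ncf1 were -1.05 to 0.40 and -0.58 to 0.88. Wider ones belonged to Ncf4 (-0.99 to 1.87 and -1.73 to 1.13) and Rac2 (-1.84 to 1.04 and -0.92 to 1.96). In monocytes Mgst1 had 0.29 (-2.84 to 3.42). That interval uses a spread estimated over all groups, among them KO microglia at 83.0, 0 and 0. It therefore does not measure the spread of the monocytes alone, which lay at 3420 to 4345 in control and 3644 to 5779 in KO mice. For Cyba and Prdx5 both intervals thus lay within a log2 change of 1 in either direction, and for each other member at least 1 interval reached beyond it.

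The KO difference in monocytes minus that in microglia was called for none of the 8 members, and for 0.0% of all tested genes, of which 590 had an unadjusted p under 0.05. Estimates ran from -1.84 for Mgst1 (95% interval -6.27 to 2.59) to 0.74 for Ncf4 (-1.28 to 2.76). DESeq2 called Mgst1 here as well, on the same library, and edgeR no member. The median log2 fold of the members in KO over control was 0.09 in monocytes and 0.11 in microglia, beside 0.05 and 0.05 over all tested genes. The neutrophil marker sums named above were higher in KO than in control monocytes in 2 of 3 libraries beyond the control range, and 1 of 15 tested neutrophil markers was called. Elane and Mpo were at 0 in control monocytes, against 119 to 2161 and 0 to 819 in KO monocytes. Prtn3 lay at 0 to 12.8 against 248 to 732, and Ctsg at 0 to 98.5 against 58.1 to 752. Csf3r went the other way (means 1271 and 418), as did the means of Cxcr2 and Camp. The part of other cell types in the KO comparison was not tested.

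Around the members, 6 lists of other radical genes were read from the same fits. In reporter mice none of their 69 tested genes was called, and in control and KO mice 14 and 13 of 98 were. These counts are to be read against the shares of all tested genes called higher and lower, 3.46% and 3.06% in control and 3.85% and 2.98% in KO mice; a single call in a list of 16 is near them. Among the oxidase's partners and regulators, 1 of 16 was higher in control monocytes and 1 of 16 lower in KO monocytes (medians -0.10 and 0.10). The first was Vav3, an exchange factor for Rac proteins, at 46.0 to 1082 against 0 in all control microglia, at least 529.8-fold higher (adjusted p = 0.0154). Without control monocytes 2 the bound was 144-fold and the call was lost (adjusted p = 0.0572). The second was Rac1, the widely expressed Rac, at 11064 ± 1028 in KO monocytes against 19070.0 ± 1555 in KO microglia (SD; log2 fold -0.79, adjusted p = 0.0415). Of 7 tested other oxidases and radical sources, Xdh, xanthine dehydrogenase, was called in KO mice (696 ± 367 against 8.33 ± 14.4, log2 fold 7.68, adjusted p = 0.0233), and the list medians were -0.44 in control and -0.92 in KO mice.

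Of 27 tested genes of superoxide and peroxide removal, 4 were higher and 1 lower in control monocytes, and 5 higher and 1 lower in KO monocytes (medians -0.22 and 0.76). Prdx6, a peroxiredoxin that also acts on phospholipids, had log2 folds of 4.00 in control and 3.31 in KO mice, and Txn1, the cytosolic thioredoxin that recharges peroxiredoxins, 1.85 and 1.66. Msrb1, which repairs oxidized methionine, had 4.24 and 3.21, and Prdx1, 1.44 and 1.09. Gpx1, a glutathione peroxidase, was called in KO mice (0.97, adjusted p = 0.0164) and not in control mice (0.65, adjusted p = 0.0961). The 2 lower genes were Txnip, an inhibitor of thioredoxin, in control mice (-2.04) and Sesn3 in KO mice (-4.47), which were named after their values were seen. Sod1 and Cat, the cytosolic dismutase and catalase, were not called in either genotype, at log2 folds of 0.41 and -0.22 in control and 0.75 and 0.78 in KO mice.

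In glutathione synthesis and transferases, 2 of 17 tested genes were higher in control monocytes and 1 of 17 lower in KO monocytes (medians -0.31 and 0.29). Slc7a11, which imports cystine, lay at 2006 ± 326 in control monocytes against 115 ± 94.7 in control microglia (SD; adjusted p = 0.00768), and Gsr, glutathione reductase, at 1288 ± 349 against 176 ± 270.1 (adjusted p = 0.0279). Gclc, of glutathione synthesis, was lower in KO monocytes, at 0 to 78.8 against 260.2 to 651 in KO microglia (log2 fold -6.13, adjusted p = 0.0159). Of 14 tested genes of the Nrf2 pathway, which switches on antioxidant genes, 1 was called, Nfe2l2 itself, in control mice (1.31, adjusted p = 0.00703; 0.28 in KO mice, not called). The list medians were 0.73 and 0.38.

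In the list of nitric oxide and arginine, 4 of 17 tested genes were higher and 1 lower in control monocytes and 4 of 17 higher in KO monocytes (medians 1.98 and 0.21). Arg1, the arginase that competes with nitric oxide synthase for arginine, lay at 6167 to 13268 in control and 9507 to 13299 in KO monocytes, against 9.84 to 452 and 9.36 to 199 in microglia (adjusted p = 0.00832 and 0.00523). Arg2, the mitochondrial arginase, had 2400.3 ± 1033 against 18.3 ± 31.7 in control mice (SD; log2 fold 9.20) and was at least 818.8-fold higher in KO monocytes, with no read in KO microglia (at least 421-fold without KO monocytes 3). Acod1, which makes itaconate, had log2 folds of 3.24 and 3.22. Ass1, which resynthesizes arginine, was at least 691-fold higher in KO monocytes, and Ddah2, which breaks down inhibitors of nitric oxide synthase, at least 157-fold lower in control monocytes (at least 105-fold without control microglia 1). In KO against control mice no gene of the 6 lists was called in either population. With edgeR on recovered reads the called genes were 1 in reporter mice, Arg2, 8 in control and 9 in KO mice, all higher in monocytes.

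**Figure D4:**
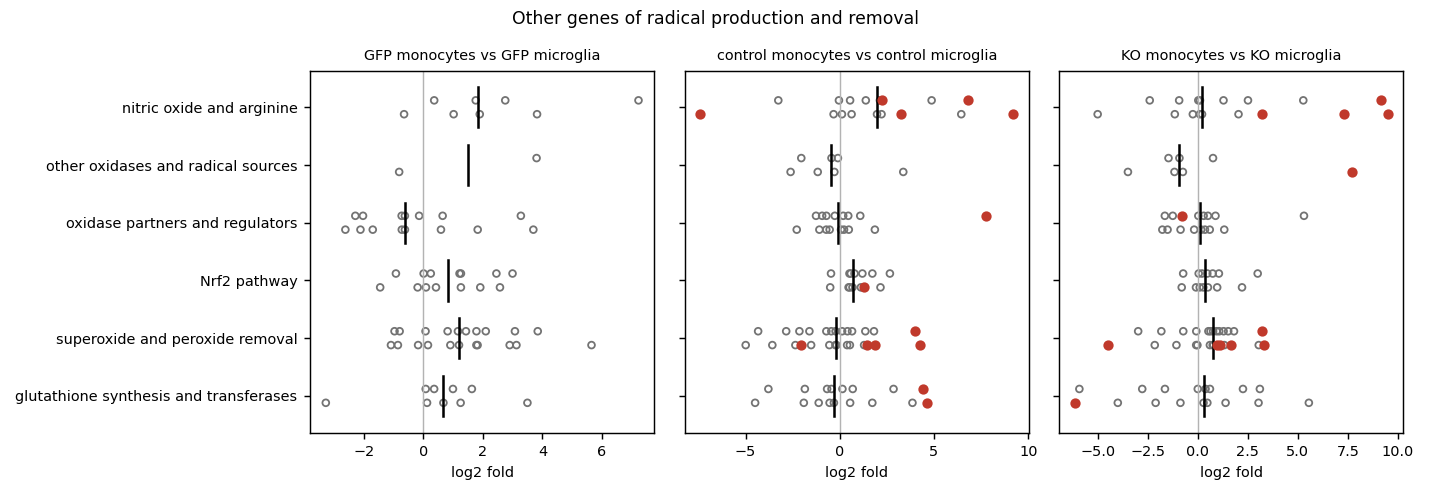
Log2 fold of monocytes over microglia, on the horizontal axis, for each tested gene of 6 lists in reporter, control and KO mice, with called genes in red, other genes open and list medians as black bars. The panel of reporter mice has no red point, and those of control and KO mice have 14 and 13, most of them right of 0; scales differ between panels and genes at 0 in a group are placed by their fitted fold.

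The genes whose profile over the 12 Cxcr4CreER libraries was most like that of each member were found by the root mean square difference of centred log2 values among 11006 genes. For Cybb they were Ifi213, Ifi211 and Il7r, at 0.48, 0.49 and 0.53. For Sod2 they were Osbpl8, Rabgef1 and Ell2 (0.28 to 0.35), for Prdx5 Cd14, Npc2 and Sde2 (0.25 to 0.31), and for Cyba Myl12b, Alox5ap and Sh3bgrl3 (0.19 to 0.26). Ncf1 was nearest to Zfp940, Arpc1a and Gpr183 (0.18 to 0.27), and Rac2 to H2-DMa, Mrpl21 and Elk3 (0.44 to 0.50). Ncf4 was nearest to a gene whose name had turned into a date in the file (0.52), then to Emp3 and Axl (0.65 and 0.66), and Mgst1 to AA467197, Anxa1 and Acp5 (0.82 to 1.12). A small value reflects a flat profile as well as a similar one: Ncf1 itself varied by 0.41 around its mean and Mgst1 by 5.73. Among the members, Sod2 and Prdx5 were the closest pair, at 0.33, and Ncf1 and Mgst1 the most distant, at 5.96. These are descriptions over libraries that share 4 animals across populations, and they carry no test.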

How the data were processed

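RNA of sorted cells was sequenced in 20 libraries, from total RNA (Nugen Ovation SoLo) for the reporter table and polyA RNA (SMART-Seq2) for the Cxcr4CreER table, per the labels' protocols. The deposited values are a normalized signal: read counts that the authors divided by 1 DESeq2 size factor per library. The submitters' processing notes name DESeq2 for both tables, with CASAVA 1.82 for the reporter libraries and kallisto and bcl2fastq 2.20 for the Cxcr4CreER libraries; genome build and annotation: not given in the sources used here. All values were whole multiples of 1 read within 0.01, so whole reads were recovered; they may be rounded estimates where kallisto was used.

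A gene was tested if it reached 10 in no fewer than 4 libraries (reporter) or 3 (Cxcr4CreER), with limma 3.58.1 (R 4.3.3), with an intensity trend, on log2(value + 1), two-sided, with Benjamini-Hochberg adjustment over all tested genes and a threshold of 0.05; the 4 Cxcr4CreER groups shared 1 estimate of the spread. A fold on this scale is a difference of mean logs: it understates the change of uniformly low genes, and can exceed the ratio of means where some libraries of a group are at 0. The ratio to Cybb used an exact permutation test over libraries. Folds against a group at 0 were set against a floor of 3 reads over that group. Intervals of folds cover the spread between libraries. The limma step was tested on simulated data.

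Alternatives were a pseudocount of 10, no filter, CPM and upper quartile scaling, edgeR 4.0.16 and DESeq2 1.42.0 on recovered reads, the animal as a block, each library left out in turn, only the libraries compared, and, in the reporter table, no libraries of fewer than 6000 detected genes. Leaving out libraries from the bounds of pathway genes was added after seeing the data. Titles show that libraries of both populations came from the same animals in all 4 reporter pairs and in 4 Cxcr4CreER pairs. Correlations of their deviations from the group means were 0.24, 0.20, 0.13 and -0.11, and between -0.06 and 0.01. Replicate numbers follow accession order and are names only.

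All 9 members are named whether called or not; of each pathway list, up to 4 called genes with the smallest p are named, and the 3 nearest genes of each member by profile (mean of at least 50 in 1 group). The members, lists and markers were chosen with earlier results of these data known. Names of 24 genes of the Cxcr4CreER mice had turned into dates and were left as they stood, and 656 had punctuation restored by a match to known symbols. Libraries from uninjured brain were not used here.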

Additional observations from a re-analysis of the deposited data

Results flagged for a closer look

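Of the values of the members, 3 stood far from the other 3 libraries of their group, by a gap that, as a share of the group's whole range, exceeds Dixon's critical value for 4 samples. Ncf4 was at 0 normalized counts in GFP monocytes 3, the lowest of its group. Rac2 was at 803 in GFP microglia 4, the highest of its group. Both libraries have few detected genes. Nos2 was at 24.8 in GFP monocytes 2, the highest of its group, a library from a pool of 5 mice. In all, 18 groups of 4 libraries were examined, and chance alone flags about 1 in 20 such groups.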

How the results depend on the processing

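Of the members called between populations, Cybb, Mgst1 and Prdx5 kept their call in control and KO mice under every alternative run. In reporter mice 0 members were called with no filter and 5 once the 3 libraries of few detected genes were left out, against 1. Leaving out 1 library in turn left 3 to 4 of the 4 calls in control mice, and 3 to 6 of the 6 in KO mice. DESeq2 called 1 member in KO against control microglia and 1 in the difference between populations. With edgeR the pathway lists held 1 call in reporter mice, against 0, and 8 in control mice, against 14. With the animal as a block (replicate pairing), the called members numbered 1, 4, 6, 0, 0 and 0 over the 6 comparisons, as without it, and no member's call changed.

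Some uncalled folds changed sign. In reporter mice Cyba was at 0.082 and Ncf1 at 0.047 with CPM scaling, and Cyba at 0.91 when libraries of few detected genes were left out. DESeq2 gave -0.000817 for Sod2 in KO against control monocytes, and -0.013 for Sod2 and 0.014 for Prdx5 in the difference between populations, where edgeR gave 0.076 for Prdx5. Leave-one-out ranges were -0.52 to 0.30 for Cyba and -0.56 to 0.16 for Ncf1 in reporter mice, and -0.050 to 0.97 for Rac2 in KO mice. For KO against control monocytes they were -0.27 to 0.16 (Cybb), -0.0015 to 0.22 (Cyba), -0.68 to 0.13 (Rac2), -0.36 to 0.42 (Sod2) and -0.24 to 0.24 (Prdx5). For microglia they were -0.013 to 1.17 (Cybb), -0.62 to 0.078 (Cyba), -0.98 to 0.35 (Ncf4), -0.15 to 1.03 (Rac2), -0.29 to 0.31 (Sod2), 0 to 3.20 (Mgst1) and -0.21 to 0.28 (Prdx5). For the difference between populations they were -0.41 to 0.42 (Sod2), -2.91 to 0.29 (Mgst1) and -0.31 to 0.26 (Prdx5). Ratios to Cybb in KO against control ranged in microglia from -1.28 to 0.091 (Cyba), -1.11 to 0.35 (Ncf1) and -0.69 to 1.04 (Rac2), and in monocytes from -0.044 to 0.45 (Cyba) and -0.54 to 0.094 (Ncf1). The cause was not tested.

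Over all genes, limma called 70 in reporter mice, against 198 with a pseudocount of 10, 38 with no filter, 181 with DESeq2 and 1198 once libraries of few detected genes were left out. The counts were 810 in control mice (478 with edgeR, 1614 with DESeq2, 539 with only the libraries compared) and 849 in KO mice (522 with edgeR, 1570 with DESeq2). For KO against control they were 5 in monocytes (0 with edgeR or only the libraries compared, 338 with DESeq2) and 4 in microglia (0, 0 and 108), and for the difference between populations 0 (276 with DESeq2). CPM scaling moved the median log2 fold of all genes to 0.65, -0.40 and -0.48 in reporter, control and KO mice, from 0.51, -0.24 and -0.25. With 3 or 4 libraries a group, and 1 read worth up to 2.58 normalized counts, low genes such as Nos2 carry little information.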
